A study of Mus musculus with 2 samples.

Results

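Fibroblast growth factor (FGF) ligands and their receptors were compared between BMSCs-adipo and BMSCs-osteo. The members were 6 ligands (Fgf1, Fgf2, Fgf7, Fgf10, Fgf18 and Fgf21) and 4 receptors (Fgfr1, Fgfr2, Fgfr3 and Fgfr4). They were found by symbol in the deposited annotation, 10 of the 20706 genes read by probe sets of a single gene, and 22 probe sets carried their names. In that annotation none of the 22 probe sets carried the name of another gene. Whether their probes also bind other transcripts was not tested. BMSCs-adipo and BMSCs-osteo are clonal murine bone marrow stromal lines that immortalized spontaneously, and BMSCs-adipo forms adipocytes whereas BMSCs-osteo forms osteoblasts. Both lines came from C57BL/6 mice with the genotype Beta-actin-GFP+ ApoE(-/-), were grown in DMEM with 12% FBS according to the labels, and were collected untreated at day 0. RNA of 3 cultures of a line was pooled and hybridised to 1 array, so the comparison holds 1 array of BMSCs-adipo and 1 array of BMSCs-osteo. Each line is a single clone, so a difference between the lines and a difference between clones cannot be told apart.

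Most FGFs are secreted proteins that bind tyrosine kinase receptors together with heparan sulfate. The activated receptor signals through docking adaptors to the RAS-ERK, PI3K and phospholipase C branches. Most FGFs act locally on neighbouring cells, while FGF21 circulates as a hormone and needs the co-receptor beta-Klotho. In bone, FGFR1, FGFR2 and FGFR3 control proliferation and maturation of skeletal cells and FGF18 acts on cartilage and osteoblasts, while FGF1, FGF10 and FGF21 are known for roles in fat. Alternative splicing of FGFR1, FGFR2 and FGFR3 yields IIIb and IIIc forms with different ligand preference. FGF7 and FGF10 act on the IIIb form of FGFR2, which is typical of epithelium.

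All values are log2 levels made by robust multiarray averaging (RMA), and a difference is the level of BMSCs-adipo minus the level of BMSCs-osteo, so that 1 is 2-fold. With 1 array per line there is no replicate error and no test, and differences are described by size only. For a gene with several probe sets, its brightest probe set by the mean of the 2 arrays was used, and a gene passed the brightness filter when that mean reached the 30th percentile of all genes (4.20). Probe sets of 1 gene had a pooled SD of 0.40 in this difference, which measures probe effects and not replicate error. The labels were checked with marker genes. Each of the 6 adipocytic markers past the filter was higher by 2-fold or more in BMSCs-adipo (median difference 5.48), as were 5 of 6 osteoblastic markers in BMSCs-osteo (median -3.88), the exception being Runx2 (0.28). Of 8 stromal markers 7 passed the filter, and 3 of these lay within 2-fold. Pdgfra (2.62) and Vcam1 (3.62) were higher in BMSCs-adipo, and Nt5e (-3.42) and Cd44 (-2.09) in BMSCs-osteo. Another probe set of Cd44 gave 0.09. Apoe, the gene that both lines lack by their label, lay below the filter. Of 5 blood cell markers with a probe set 3 passed the filter (Csf1r, Cd3e and Adgre1), and Ptprc and Itgam did not. Of 6 endothelial markers 2 passed (Kdr and Cdh5), and Pecam1, Tek, Emcn and Vwf did not. On their brightest probe sets none of the 5 that passed reached 2-fold between the lines, but another probe set of Csf1r differed by -1.30. The part of such cells in the results was not tested. As these are bulk samples, fewer cells with a transcript and less transcript per cell cannot be told apart.

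Most FGF ligands and receptors lay within 2-fold between the lines. The differences farthest from 0 belonged to Fgfr1, which was higher in BMSCs-osteo, and to Fgfr2, which was higher in BMSCs-adipo. Of the 10 members 8 passed the filter, and 2 ligands, Fgf2 and Fgf10, did not. None of the 8 was higher by 2-fold or more in BMSCs-adipo, against 7.88% of the 14497 filtered genes, and 1 of 8 (Fgfr1) was so in BMSCs-osteo, against 6.68%. Among 8 genes these shares come to less than 1 gene each, so no more is read from the counts. With a 1.5-fold rule 2 members stood on the side of BMSCs-adipo (Fgf7 and Fgfr2), against 16.1% of filtered genes, and 2 on the side of BMSCs-osteo (Fgf21 and Fgfr1), against 14.5%. No member reached 4-fold, against 2.27% of filtered genes toward BMSCs-adipo and 1.99% toward BMSCs-osteo. The median difference of the 8 genes was 0.07 and that of all filtered genes -0.03. The median absolute difference was 0.57 for the 8 genes and 0.34 for all filtered genes, and 4 members had a positive and 4 a negative difference.

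**Figure D1:**
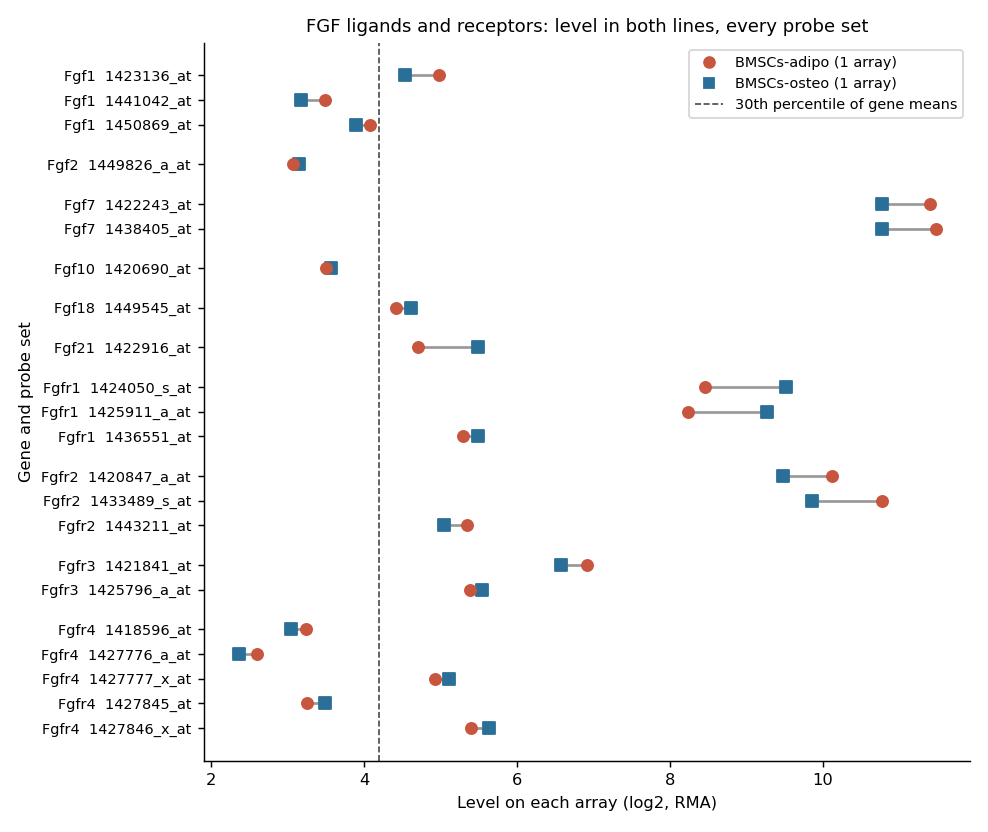
Log2 RMA level (x axis) of each of the 22 probe sets of the FGF ligands and receptors (y axis) on the array of BMSCs-adipo (circles) and of BMSCs-osteo (squares), 1 array each. The dashed line marks the 30th percentile of gene means (4.20). Both probe sets of Fgf7 lie above 10 on both arrays, and all 3 probe sets of Fgfr1 and all 3 of Fgfr2 point in opposite directions.

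Fgf7 and Fgf21 were the ligands farthest from 0, on opposite sides. Their promoters are shown because these are the ligands farthest toward BMSCs-adipo and toward BMSCs-osteo. RefSeq promoter sequences matched 8 of the 10 members, all but Fgf1 and Fgfr1. The 250 bases before the annotated start, from RefSeq on GRCm38.p6, are given in the direction of transcription, at chr2:126034408-126034657 (+ strand) for Fgf7 and at chr7:45615491-45615740 (- strand) for Fgf21. Capitals mark matches to 4 motifs on either strand. TATAAA was searched as the TATA box of core promoters. GGGCGG was searched as the GC box that SP1-type factors bind. CCAAT was searched as the box that NF-Y binds. TGATGNAA was searched as the response element that C/EBP-ATF dimers such as those of ATF4 bind.
Fgf7: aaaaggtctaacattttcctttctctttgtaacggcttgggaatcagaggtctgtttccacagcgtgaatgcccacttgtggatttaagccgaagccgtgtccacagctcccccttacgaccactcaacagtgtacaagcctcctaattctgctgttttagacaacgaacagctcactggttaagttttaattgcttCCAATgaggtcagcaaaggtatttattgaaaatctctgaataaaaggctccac
Fgf21: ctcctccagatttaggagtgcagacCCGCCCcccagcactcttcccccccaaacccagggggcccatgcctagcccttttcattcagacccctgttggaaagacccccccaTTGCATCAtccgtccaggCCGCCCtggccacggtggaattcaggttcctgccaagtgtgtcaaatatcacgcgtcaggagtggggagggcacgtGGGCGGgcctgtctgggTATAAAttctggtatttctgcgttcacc
The Fgf7 window held 1 match, a match to the NF-Y box at 53 to 49 bases before the start, and its GC content was 43.6% with 6 CpG sites. The Fgf21 window held a TATA box at 28 to 23 bases, GC boxes at 225 to 220, 121 to 116 and 45 to 40 bases, and a C/EBP-ATF element at 139 to 132 bases before the start. Its GC content was 59.6% with 9 CpG sites, and the median over all windows was 6. Over the matched members the number of CpG sites ran from 2 in Fgfr2 to 37 in Fgf18. Among 32851 RefSeq promoters of this length, 12.4% held the TATA box, 32.7% the GC box, 33.8% the NF-Y box and 3.45% the C/EBP-ATF element. Among the matched members the TATA box and the C/EBP-ATF element were found only in Fgf21. The motifs do not overlap each other in these windows, and a match is a description of letters and not of binding.

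Fgf7, also called keratinocyte growth factor, is a stromal factor that acts on epithelium. Its brighter probe set had a level of 11.48 in BMSCs-adipo, against 10.79 in BMSCs-osteo, a difference of 0.69 or 1.62-fold. The second probe set had 11.41 in BMSCs-adipo and 10.78 in BMSCs-osteo (0.62), so both probe sets placed Fgf7 higher in BMSCs-adipo by less than 2-fold. Among filtered genes, 13.3% were at least as far toward BMSCs-adipo. Fgf7 lies on chromosome 2, where the median difference of filtered genes was -0.24.

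Fgf21, a metabolic hormone that is also an ATF4 target in mouse liver, had a level of 4.71 in BMSCs-adipo, against 5.50 in BMSCs-osteo. The difference of -0.79 is 1.72-fold toward BMSCs-osteo, and 9.60% of filtered genes were at least as far in that direction. With an offset of 32 on the linear scale, which shrinks differences of dim probe sets, it was -0.41 and no longer reached 1.5-fold. It was read by a single probe set near the brightness filter. Klb, which encodes the beta-Klotho that FGF21 needs, was below the filter, with 2.98 in BMSCs-adipo, against 3.29 in BMSCs-osteo. Kl, which encodes Klotho, the co-receptor of FGF23, was also below it, with 3.99 in BMSCs-adipo, against 3.64 in BMSCs-osteo.

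Fgf1, which can activate all 4 receptors, had a level of 4.98 in BMSCs-adipo, against 4.54 in BMSCs-osteo on its brightest probe set (0.44). The other probe sets of Fgf1 differed by 0.31 and 0.19 and lay below the filter, so all 3 leaned toward BMSCs-adipo by less than 1.5-fold. Fgf18, a factor of cartilage and bone, had 4.42 in BMSCs-adipo and 4.62 in BMSCs-osteo (-0.20). Its single probe set lay close to the brightness filter. Fgf2, a mitogen of stromal cells in culture, had 3.07 in BMSCs-adipo and 3.15 in BMSCs-osteo, and Fgf10, a mesenchymal factor that also promotes adipogenesis in mouse fat, had 3.50 in BMSCs-adipo and 3.57 in BMSCs-osteo. Each of these 2 genes was read by 1 probe set below the filter, and the files hold no detection calls, so their transcripts may be present at a level that these probe sets do not resolve.

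Among the receptors, Fgfr1 and Fgfr2 lay on opposite sides. Fgfr1, the main receptor of mesenchymal cells, had a level of 8.46 in BMSCs-adipo, against 9.52 in BMSCs-osteo, on its brightest probe set. This difference of -1.06 is 2.08-fold, just past the size rule, and 6.01% of filtered genes were at least as far toward BMSCs-osteo. The second probe set gave 8.24 in BMSCs-adipo, against 9.27 in BMSCs-osteo (-1.03). The third was much dimmer and gave 5.30 in BMSCs-adipo and 5.50 in BMSCs-osteo (-0.20). All 3 probe sets thus placed Fgfr1 higher in BMSCs-osteo, but their mean difference was -0.76, within 2-fold, and an offset of 32 on the linear scale gave -0.99. Fgfr1 lies on chromosome 8, whose 720 filtered genes leaned the other way with a median of 0.41. Relative to that median, an alternative chosen after the data were seen, Fgfr1 differed by -1.46.

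Fgfr2, a receptor that drives osteoprogenitor growth and that in its IIIb form receives FGF7, leaned toward BMSCs-adipo. Its brightest probe set had 10.78 in BMSCs-adipo and 9.86 in BMSCs-osteo, a difference of 0.93 or 1.90-fold, just short of the size rule, and 8.91% of filtered genes were at least as far in that direction. The second had 10.13 in BMSCs-adipo and 9.48 in BMSCs-osteo (0.64), and the dimmest had 5.34 in BMSCs-adipo and 5.05 in BMSCs-osteo (0.30). Relative to the median of chromosome 7 (-0.08), an alternative chosen after the data were seen, the difference was 1.00, past 2-fold. Subtraction of chromosome medians also enlarged the differences of Fgf1, Fgf7 and Fgfr3. It shrank those of Fgf21 (from -0.79 to -0.71) and Fgfr4 (from -0.24 to -0.001). The files do not say which splice form each probe set reads, so the IIIb and IIIc forms were not separated. Esrp1 and Esrp2, epithelial splicing regulators that favour the IIIb form, lay below the filter. Esrp1 had 3.26 in BMSCs-adipo, against 3.56 in BMSCs-osteo, and Esrp2 had 3.73 in BMSCs-adipo, against 3.84 in BMSCs-osteo. These 2 genes were chosen after the member values had been seen.

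The balance of Fgfr2 to Fgfr1 was higher in BMSCs-adipo than in BMSCs-osteo. The difference of Fgfr2 minus that of Fgfr1 was 1.98 on the log2 scale, a shift of 3.95-fold in the ratio of the 2 receptors between the lines. Over the 9 combinations of their probe sets this shift ran from 0.50 to 1.98 (1.41-fold to 3.95-fold), so the value given is the largest. All 9 were positive, which follows from the signs of the single probe sets and adds no support. The shift was 1.39 when probe sets were averaged per gene and 2.47 relative to the chromosome medians. The combination was singled out after the values had been seen.

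Fgfr3, a receptor that restrains growth plate cartilage, gave probe sets of opposite sign. The brighter had 6.91 in BMSCs-adipo and 6.57 in BMSCs-osteo (0.34), and the dimmer had 5.39 in BMSCs-adipo and 5.54 in BMSCs-osteo (-0.15). No direction can be given for this gene. Fgfr4, a receptor of liver and muscle that binds FGF19-type hormones, was read by 5 probe sets, 3 of them below the filter. The brightest had 5.40 in BMSCs-adipo and 5.63 in BMSCs-osteo (-0.24), and the 5 differences ran from -0.24 to 0.25 with 2 above and 3 below 0. Among the 6 members with several probe sets, the probe sets shared a sign for Fgf1, Fgf7, Fgfr1 and Fgfr2 (4 genes).

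**Figure D2:**
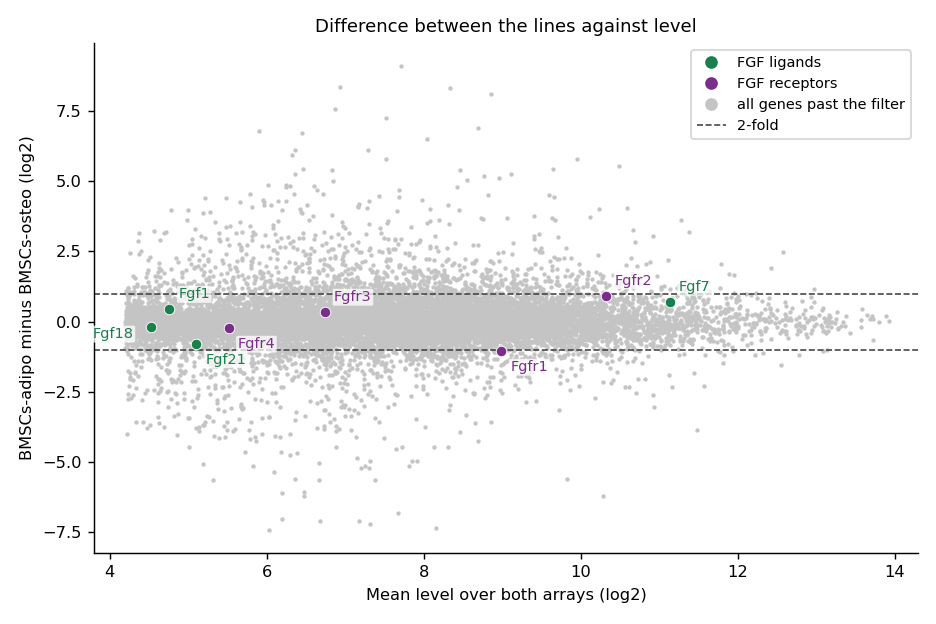
Difference between the lines (y axis, log2 BMSCs-adipo minus BMSCs-osteo) against the mean level over both arrays (x axis, log2) for 14497 genes past the filter, with the 8 FGF ligands and receptors past the filter named. Dashed lines mark 2-fold. Fgfr1 (-1.06) lies at the lower line, Fgfr2 (0.93) and Fgf7 (0.69) lie below the upper line, and the remaining members lie between the lines at lower levels.

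The other 16 FGF family genes were all on the array, and 7 passed the filter. All 7 lay within 2-fold, as did 12386 of the 14497 filtered genes, so no more is read from this count. Their median difference was -0.21, and the differences farthest from 0 were those of Fgf20 (-0.26), Fgf6 (-0.25), Fgf4 (-0.22) and Fgf22 (-0.21). The levels of these 4 genes lay between 4.27 and 5.95, and the array medians were 5.01 in BMSCs-adipo and 5.02 in BMSCs-osteo. For Fgf4 the 4 probe sets ran from -0.32 to 0.24.

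Genes for FGF co-receptors and modulators spread more widely than the ligands and receptors. Among the pathway genes described from here on, 6 that reached 2-fold passed the filter only through the line where they were high, and their level in the other line lay below it (Fgfbp3, Flrt3, Sulf1, Hs3st1, Grb10 and Spry4). Without detection calls the size of these 6 differences is not firm. Of 20 with a probe set 15 passed the filter. Among these, 3 were higher by 2-fold or more in BMSCs-adipo (20.0%, against 7.88% of all filtered genes) and 6 in BMSCs-osteo (40.0%, against 6.68%). Their median absolute difference was 1.26, and their median of -0.27 became 0.12 with a filter at the 50th percentile. Under that filter 4 were higher by 2-fold or more in BMSCs-osteo. The list was chosen with earlier results of these data known, so its shares are a description only. The 3 toward BMSCs-adipo were Fgfbp3, Tgfbr3 and Sdc1. Fgfbp3 encodes a secreted carrier that releases FGFs from the matrix. It had a level of 8.09 in BMSCs-adipo, against 3.83 in BMSCs-osteo, a difference of 4.27 on a single probe set, and the level in BMSCs-osteo lay below the filter. Tgfbr3, betaglycan, carries heparan sulfate and binds FGF2 as well as TGF-beta. It had 11.99 in BMSCs-adipo and 8.25 in BMSCs-osteo (3.74), and its 2 probe sets gave 3.74 and 4.07. Sdc1, the heparan sulfate proteoglycan syndecan-1, had 11.01 in BMSCs-adipo and 9.69 in BMSCs-osteo (1.32), and its 4 probe sets ran from 0.99 to 1.46.

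The 6 genes toward BMSCs-osteo were the adhesion molecules Cdh2 and Ncam1, which can associate with FGFR1, the FLRT genes Flrt2 and Flrt3, and the proteoglycans Gpc1 and Sdc3. Proteoglycans thus stood on both sides. Cdh2, N-cadherin, had 4.84 in BMSCs-adipo and 9.78 in BMSCs-osteo (-4.94), and its second probe set gave -4.81. Ncam1, the neural cell adhesion molecule, had 6.35 in BMSCs-adipo and 8.97 in BMSCs-osteo (-2.61), with 7 probe sets from -4.53 to -0.19. Flrt2, a transmembrane protein that binds FGF receptors, had 4.26 in BMSCs-adipo and 6.59 in BMSCs-osteo (-2.33), and its relative Flrt3 had 3.66 in BMSCs-adipo and 4.81 in BMSCs-osteo (-1.15). All probe sets of Flrt2 and Flrt3 had negative differences. Gpc1, glypican-1, had 9.71 in BMSCs-adipo and 11.75 in BMSCs-osteo (-2.04), and Sdc3, syndecan-3, had 9.16 in BMSCs-adipo and 10.42 in BMSCs-osteo (-1.26). Fgfrl1, a receptor-like protein without a kinase domain that was singled out after its values were seen, had 10.24 in BMSCs-adipo and 9.36 in BMSCs-osteo (0.88), and its other probe set differed by 2.01.

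Enzymes that build or edit heparan sulfate, the cofactor of FGF binding, were split. Of 17 past the filter 2 were higher by 2-fold or more in BMSCs-adipo (11.8%, against 7.88% of all filtered genes) and 4 in BMSCs-osteo (23.5%, against 6.68%), and the median was -0.51. The median became 0.01 under a filter at the 50th percentile, where 1 enzyme was higher by 2-fold or more in BMSCs-osteo. The sulfatases Sulf1 and Sulf2, which remove 6-O-sulfate groups outside the cell, lay on opposite sides. Sulf1 had 3.43 in BMSCs-adipo and 7.01 in BMSCs-osteo (-3.57, with probe sets up to -0.17), and Sulf2 had 12.37 in BMSCs-adipo and 11.18 in BMSCs-osteo (1.19, with probe sets from 0.07 to 1.52). Glce, the glucuronyl C5-epimerase, had 7.73 in BMSCs-adipo and 10.26 in BMSCs-osteo (-2.53), and its 3 probe sets ran from -2.53 to -0.81. Hs3st1, a 3-O-sulfotransferase, differed by -1.94, Extl1, a chain-elongating glycosyltransferase, by -1.32, and Ndst2, an N-deacetylase and N-sulfotransferase, by 1.13.

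**Figure D3:**
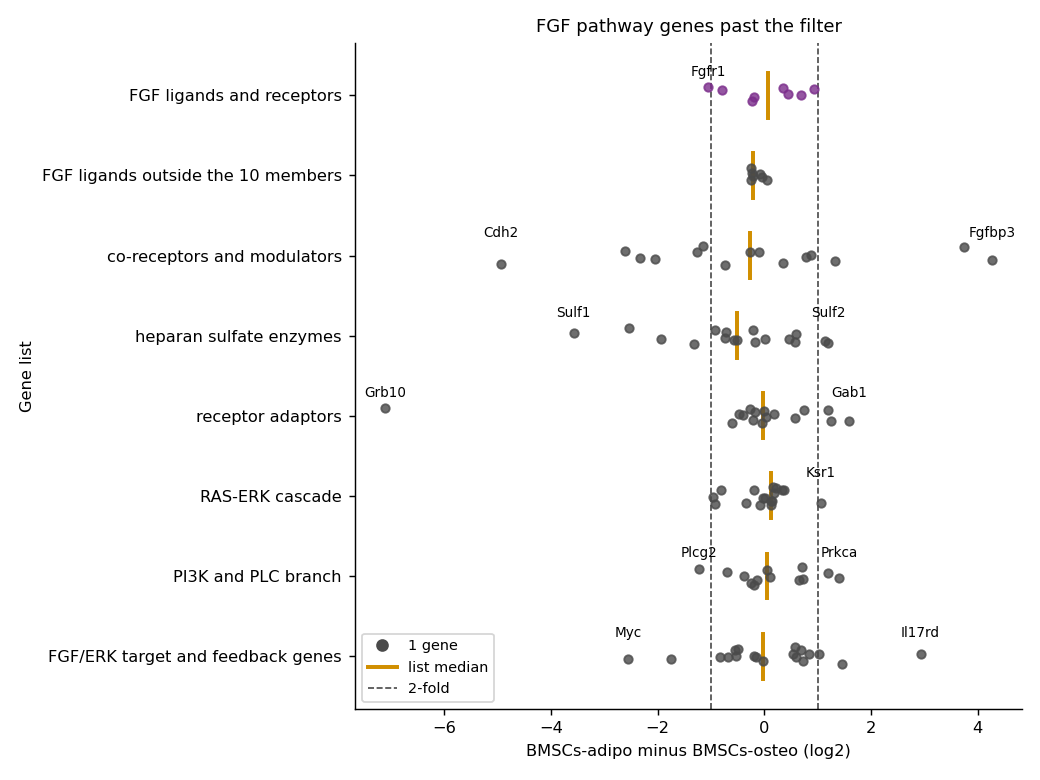
Difference between the lines (x axis, log2 BMSCs-adipo minus BMSCs-osteo) of the FGF ligands and receptors and of 7 lists of FGF pathway genes past the filter (y axis), 1 point per gene, with the list median as a bar and 2-fold as dashed lines. Medians lie between -0.51 and 0.13, and the widest ranges are those of the co-receptors and modulators and of the receptor adaptors. The range of the adaptors rests on Grb10 alone (-7.11), and their median absolute difference was 0.44.

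Inside the cell, most adaptors and kinases lay within 2-fold. Among 16 receptor adaptors, 3 were higher by 2-fold or more in BMSCs-adipo (18.8%, against 7.88% of all filtered genes) and 1 in BMSCs-osteo (6.25%, against 6.68%), with a median of -0.016. Gab1, a docking adaptor that links FRS2 to PI3K, had 8.23 in BMSCs-adipo and 6.64 in BMSCs-osteo (1.59). On the same side stood the ubiquitin ligase Cblb (1.26) and the RAS exchange factor Sos2 (1.19). Grb10, an imprinted adaptor of insulin and growth factor receptors, had 3.63 in BMSCs-adipo and 10.74 in BMSCs-osteo (-7.11). Its 3 probe sets ran from -7.11 to -2.46, and the level in BMSCs-adipo lay below the filter. Frs2, the main docking protein of FGF receptors, which was singled out after its values were seen, differed by 0.57 and had another probe set at -0.17.

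Of 17 genes of the RAS-ERK cascade, 16 lay within 2-fold, and the scaffold Ksr1 alone was beyond it, toward BMSCs-adipo (1.05, with another probe set at 0.16), a share of 5.88% against 7.88% of all filtered genes. The median of the cascade was 0.13. In the PI3K and phospholipase C branch, 2 of 13 filtered genes (15.4%, against 7.88% of all filtered genes) reached 2-fold toward BMSCs-adipo, the protein kinase C genes Prkca (1.40) and Prkcd (1.19), and the median was 0.048. Another probe set of Prkca had a negative difference (-0.32). Plcg2, a phospholipase C of mainly blood cells, was the 1 gene to reach 2-fold toward BMSCs-osteo (-1.22), or 7.69% against 6.68% of all filtered genes.

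Genes that FGF and ERK signaling are known to induce did not share a direction. Of 19 past the filter 3 were higher by 2-fold or more in BMSCs-adipo (15.8%, against 7.88% of all filtered genes) and 2 in BMSCs-osteo (10.5%, against 6.68%), and the median was -0.025. In a list of this size these shares differ from those of all genes by few genes, and no more is read from them. Il17rd, or Sef, an inhibitor that acts at FGF receptors, had 9.17 in BMSCs-adipo and 6.24 in BMSCs-osteo (2.93), and its other probe set gave 1.68. The ERK phosphatase Dusp4 had 6.29 in BMSCs-adipo and 4.83 in BMSCs-osteo (1.46), and the inhibitor Spry4 had 4.78 in BMSCs-adipo and 3.76 in BMSCs-osteo (1.02, with another of its 4 probe sets at 0.00 and the level in BMSCs-osteo below the filter). Myc, a growth regulator, had 7.35 in BMSCs-adipo and 9.90 in BMSCs-osteo (-2.55), and Ier3, an early response gene, had 8.63 in BMSCs-adipo and 10.37 in BMSCs-osteo (-1.74). All 14 remaining genes lay within 2-fold. Of these, named after their values were seen, the Sprouty inhibitors Spry1 and Spry2 differed by 0.72 and 0.83, and the ERK phosphatase genes Dusp5, Dusp6 and Dusp7 by 0.69, 0.58 and 0.59. Another probe set of Spry2 gave 0.08. The related inhibitors Spred1, Spred2 and Spred3 differed by -0.49, -0.53 and -0.025. For Spred1 the 8 probe sets ran from -0.49 to 0.47. The ETS factors Etv4 and Etv5 differed by -0.16 and 0.54. The early genes Egr1, Fos and Fosl1 differed by -0.83, -0.55 and -0.20, and the cyclin gene Ccnd1 by -0.67.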

How the data were processed

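Total RNA of BMSCs-adipo and BMSCs-osteo was labelled from 8 ug and hybridised to Affymetrix arrays, 1 per line. The paper names the MG430A array, but levels of 45101 probe sets were deposited, more than that array is known to hold. The array type is therefore given here only as Affymetrix. Levels on the log2 scale were deposited by the authors after RMA with the oligo package. Neither its version and settings nor a genome build is given in the sources read. RMA equalises the distributions of both arrays, so differences are relative to the other genes. A deposited column of the authors' own log2 fold changes (BMSCs-osteo over BMSCs-adipo) was not used. The series matrix held the same values (largest gap 0).

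Probe sets of controls (64), of several genes (1479) or without a gene were left out, which left 38190. Each gene took its brightest probe set, and 14497 of 20706 genes passed the 30th percentile. Chromosomes came from RefSeq (GRCm38.p6) by Entrez ID. Members and lists were chosen with earlier results of these data known, and 2 list genes are not reported here. Text names all members, list genes at least 2-fold apart, otherwise up to 4 with the largest absolute difference, and some of the markers. No test was possible with 1 array per line, so the number of arrays limits the precision. The counting and loess steps were tested on simulated data. Alternatives were other summaries, filters, offsets, centrings and size rules. Python 3.11.15, numpy 2.4.6, pandas 2.3.3, statsmodels 0.14.6 and matplotlib 3.10.9 were used.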

Additional observations from a re-analysis of the deposited data

How the results depend on the processing

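Differences were recomputed for the members past the filter and for the Fgfr2 to Fgfr1 shift. Of these, 63 moved by less than 0.40, the SD between probe sets of a gene, and 10 by more. Some of the 63 could not move, such as those from the series matrix, which held the same values. Probe set means likewise cannot move a gene with 1 probe set, so the 63 do not measure stability. Only Fgfr1 and the shift were at least 2-fold, and neither changed sign. Fgfr1 (-1.06) gave -0.20 on its dimmest probe set, also the 1 left when probe sets that can hybridise several transcripts were set aside, and -1.46 after subtraction of the chromosome median, an alternative chosen after the data were seen. Fgfr2 (0.93) gave 0.30 on its dimmest probe set, left by the same rule. Fgfr3 gave -0.15 on its dimmer probe set, and Fgfr4 gave 0.19 and 0.25 on its 2 dimmest. The shift of Fgfr2 against Fgfr1 (1.98) became 1.39 with probe set means and 2.47 with chromosome medians subtracted. The members' median of 0.07 became -0.074 without the filter, 0.52 with a filter at the 50th percentile and 0.23 with chromosome medians subtracted. The count higher in BMSCs-adipo (0) was 2 with a 1.5-fold rule and 1, Fgfr2, with chromosome medians subtracted. The count higher in BMSCs-osteo (1) was 0 with probe set means, with the offset of 32 and with a 4-fold rule, and 2 with a 1.5-fold rule. For the pathway lists, 101 recomputed counts stayed within 1.5 times and 25 did not, mostly under other size rules, and 35 medians moved by less and 14 by more than the probe set SD over the square root of the number of genes. Of the counts beyond 1.5 times, the target genes higher in BMSCs-adipo (3) were 1 with the offset and with a filter at the 50th percentile. The RAS-ERK genes (1) were 0 with the offset and with probe set means. The heparan sulfate enzymes higher in BMSCs-osteo (4) were 2 with the offset and 1 with the 50th percentile filter, and those higher in BMSCs-adipo (2) were 1 with probe set means or chromosome medians subtracted. The genes of the PI3K and phospholipase C branch higher in BMSCs-adipo (2) were 1 with probe set means, where their median of 0.048 became -0.13. The RAS-ERK median of 0.13 became -0.024 with chromosome medians subtracted. The causes of these changes were not tested. Values near the filter rest on dim probe sets without detection calls. No paired analysis was possible because each line has 1 array.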
